A study of Mus musculus with 12 samples.

Results

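Of the 12 arrays of this series, 7 carried a strong signal for Cela3b, a chymotrypsin-like elastase made by the acinar cells of the pancreas, and 5 did not. The arrays were selected on that measured signal alone, at a log2 signal of 8. The 7 arrays above it are called pancreas-positive here, and the 5 at or below it pancreas-negative, as names for the rule and not for how the tissue was cut. Cela3b had 12.27, 12.70 and 12.80 as its lowest, median and highest log2 signal on the pancreas-positive arrays, against 2.68, 3.87, 3.87, 2.69 and 2.70 on the pancreas-negative arrays. No array lay near the threshold, the closest being 12.27 above it and 3.87 below it.

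The series measured the proximal jejunum, the upper middle segment of the small intestine, in mice of 4 groups with 3 mice and 3 arrays each. The knockout (KO) mice were of the strain B6.129-Tlr2tm1Kir/J, which lacks the receptor TLR2 in all cells, and the wild-type (WT) mice were C57BL6/J. In each genotype 1 group received methotrexate, an antifolate drug, as a daily intraperitoneal dose of 40 mg per kg on 4 days, with sacrifice on day 7, and 1 group was untreated, for which no injection and no day are recorded. The pancreas-positive arrays were mice 2 and 3 of methotrexate-treated KO, mice 2 and 3 of untreated KO, mouse 2 of methotrexate-treated WT, and mice 2 and 3 of untreated WT. The pancreas-negative arrays were mouse 1 of methotrexate-treated KO, mouse 1 of untreated KO, mice 1 and 3 of methotrexate-treated WT, and mouse 1 of untreated WT. Every group therefore held arrays of both kinds, and WT mice given methotrexate were the 1 group with a single pancreas-positive array.

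The exocrine pancreas consists of acinar cells, which pack digestive enzymes and their inactive precursors (zymogens) into granules, and of ducts that carry the juice to the duodenum. Scattered islets release hormones such as insulin, amylin and pancreatic polypeptide into the blood. In the mouse the gland is spread through the mesentery beside the duodenum and the first part of the jejunum, where absorptive cells change their transporters along the length of the gut.

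The promoters of 3 genes of the acinar enzyme group are shown because these genes were among those farthest apart between the arrays and have no strong signal on the pancreas-negative arrays: Cela3b, Cela1 (elastase of the same family) and Cel (carboxyl ester lipase). Each window holds 250 bases before and 50 after the RefSeq start site, on the minus strand of mouse build GRCm38.p6, read 5′ to 3′. Capitals mark CACCTG, an E-box of the kind bound by the basic helix-loop-helix protein of the acinar PTF1 complex, and TTTCCC, which resembles the box bound by the RBPJ-type subunit of that complex, each on either strand. The windows lie at chr4:137430471-137430770, chr15:100687871-100688170 and chr2:28563354-28563653.
Cela3b: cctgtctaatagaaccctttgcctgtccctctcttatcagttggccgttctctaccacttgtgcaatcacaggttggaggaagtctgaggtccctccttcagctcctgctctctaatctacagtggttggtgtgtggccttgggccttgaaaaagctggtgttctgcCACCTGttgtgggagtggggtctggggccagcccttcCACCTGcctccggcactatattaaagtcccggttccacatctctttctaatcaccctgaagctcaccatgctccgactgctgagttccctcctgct
Cela1: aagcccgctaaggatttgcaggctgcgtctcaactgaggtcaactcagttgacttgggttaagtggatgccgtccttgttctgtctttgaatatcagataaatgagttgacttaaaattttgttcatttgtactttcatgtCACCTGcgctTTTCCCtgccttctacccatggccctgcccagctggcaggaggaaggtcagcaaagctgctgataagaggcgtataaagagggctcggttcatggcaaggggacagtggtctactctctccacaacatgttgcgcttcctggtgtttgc
Cel: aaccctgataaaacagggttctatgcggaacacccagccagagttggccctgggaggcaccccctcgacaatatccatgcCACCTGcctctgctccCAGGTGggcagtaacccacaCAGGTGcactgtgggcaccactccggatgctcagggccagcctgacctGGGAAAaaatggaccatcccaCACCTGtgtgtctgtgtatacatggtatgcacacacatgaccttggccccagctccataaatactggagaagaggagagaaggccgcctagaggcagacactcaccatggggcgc
Over the whole acinar enzyme list, 17 of the 21 measured genes had a promoter in the RefSeq table, with 19 promoters in all. CACCTG was present in 10 of these 19 (52.63%), against 20.21% of all 32851 promoters of that length. TTTCCC was present in 6 of the 19 (31.58%), against 25.25% of all, and both motifs in 4 (21.05%), against 4.86%. The 2 motifs have no overlap in letters, and a match describes the letters only.

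Values are RMA log2 signals as deposited, on which the array medians over all probe sets lay between 4.37 and 4.56 and the array maxima between 13.08 and 13.48. A difference between the 2 kinds of array is the coefficient of a limma fit with 1 mean per group and 1 term for the split, followed by its standard error. Because Cela3b of these same arrays chose the split, these differences describe the arrays and no p-value is given for them. With an adjusted p under 0.05 as the threshold, 401 of 18820 genes (2.13%) passed as higher on the pancreas-positive arrays and 98 (0.521%) as lower. On 154 genes (0.818%) all 7 pancreas-positive arrays lay above all 5 others, and on 21 (0.112%) all 7 lay below. In every 1 of the 4 groups 1635 genes (8.69%) were higher on the pancreas-positive arrays and 1442 (7.66%) lower. The split moved the median of all genes by -0.01. In these bulk samples fewer cells of a type and less RNA per cell cannot be told apart. The Tlr2 probe set had a log2 signal of 4.36 to 6.18 on KO arrays and 4.37 to 4.65 on WT arrays; where its probes lie relative to the disrupted part of the gene is not given in the sources used here, so the signal does not check the genotype labels.

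Digestive enzyme genes set the 2 kinds of array apart most widely. Of 21 measured genes of the acinar enzyme list, 20 were above all pancreas-negative arrays on all 7 pancreas-positive arrays, and the same 20 were higher in all 4 groups. The list's median difference was 7.61, against -0.01 over all genes. The threshold was passed by 20 as higher and by 1, Dnase1, as lower. These counts include Cela3b, whose place was fixed by the rule; without it 19 of 20 genes were above all pancreas-negative arrays, higher in all 4 groups and past the threshold as higher, with a median difference of 7.38. Cel, which hydrolyses cholesterol esters and fats, had 12.05, 12.47 and 12.65 as its lowest, median and highest log2 signal on the pancreas-positive arrays, against 2.78, 3.54, 4.44, 3.21 and 3.27 on the pancreas-negative arrays, a difference of 9.06 ± 0.24. Cpa1, the zymogen of carboxypeptidase A, had 12.42, 12.68 and 12.75, against 3.02, 5.35, 5.01, 3.71 and 3.19, a difference of 8.64 ± 0.34. The 2 ranges were far from touching for either gene.

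The trypsin and chymotrypsin genes, whose products cut dietary protein, gave the same picture at several levels. Ctrb1, encoding chymotrypsinogen B, had 12.61, 12.93 and 13.00 on the pancreas-positive arrays, against 2.88, 6.04, 6.47, 3.44 and 3.53 on the pancreas-negative arrays. Among the pancreas-negative arrays, mouse 1 of untreated KO and mouse 1 of methotrexate-treated WT stood above the other 3 for this gene and also for Cpa1. The differences were 8.50 for Try5, 7.83 for Prss2, 7.72 for Ctrl, 7.61 for Try10, 5.99 for Try4, 5.95 for Prss3 and 4.84 for Ctrc. These are closely related genes, and probes of one may take signal from another. The elastases Cela1 and Cela3a differed by 7.73 and 4.58, the carboxypeptidase Cpb1 by 8.07, the lipase-related Pnliprp1 by 7.94 and the phospholipase Pla2g1b by 7.15. Amy1, an amylase that digests starch, differed by 3.95.

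**Figure D1:**
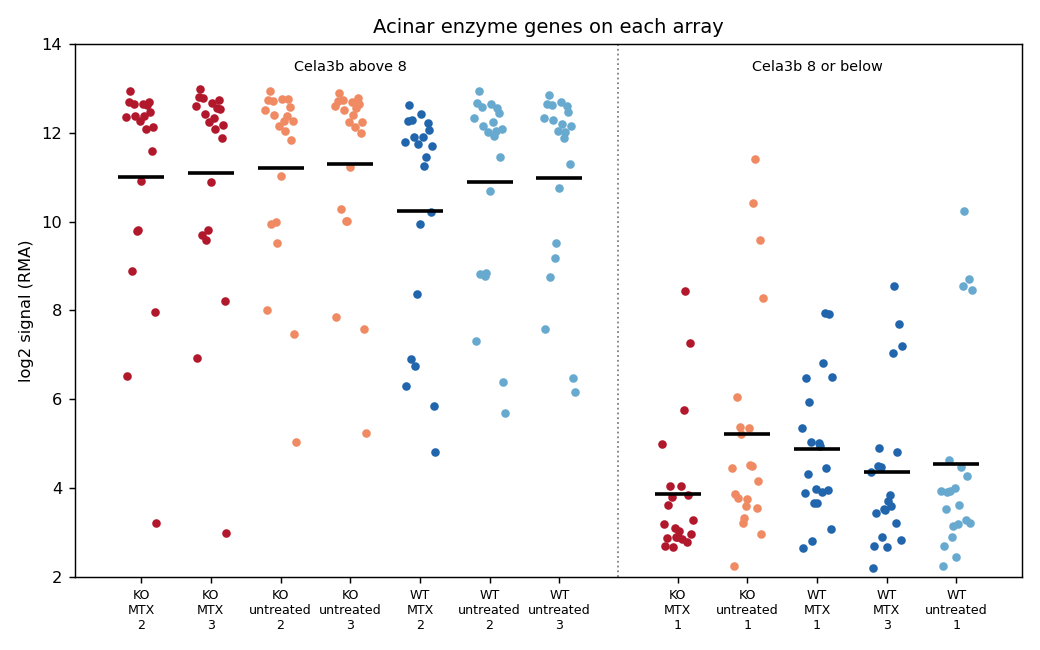
Log2 signal (y axis) of the 21 measured genes of the acinar enzyme list on each of the 12 arrays (x axis, pancreas-positive left of the dotted line), 1 point per gene, with the mean as a bar. The means lie between 10.23 and 11.30 on the pancreas-positive arrays and between 3.85 and 5.22 on the pancreas-negative arrays.

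Clps, Pnliprp2 and Rnase1, which act in fat and RNA digestion, also had sizeable signal on the pancreas-negative arrays. Clps, encoding the colipase that anchors pancreatic lipase to fat droplets, had 12.21, 12.70 and 12.79 on the pancreas-positive arrays, against 8.44, 11.40, 7.94, 8.55 and 10.23 on the pancreas-negative arrays. Pnliprp2 had 11.45, 12.38 and 12.62, against 5.76, 10.42, 6.81, 7.04 and 8.54, and Rnase1, the secreted ribonuclease, had 11.71, 12.16 and 12.27, against 7.26, 9.59, 7.93, 7.70 and 8.71. Their differences were accordingly among the smaller ones of the list, at 2.99 ± 0.38, 4.22 ± 0.54 and 3.71 ± 0.26. Dnase1, a secreted nuclease, ran the other way with 2.98, 5.03 and 6.17 on the pancreas-positive arrays, against 3.27, 8.28, 6.50, 7.21 and 8.47 on the pancreas-negative arrays, and the ranges overlapped.

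The 7 pancreas-positive arrays were not alike in the amount of acinar signal. Mouse 2 of methotrexate-treated WT had the lowest value of the 7 for all 20 enzyme genes that were higher on these arrays, with a list mean of 10.23 against 10.89 to 11.30 on the other 6. For the 12 enzyme genes that averaged 12 or more on these arrays, close to the array maximum, the range over the 7 arrays was 0.33 to 1.16, with a median of 0.55. For the 8 dimmer ones the range was 0.88 to 3.38, with a median of 1.74. Ctrc, for example, had 6.91 on that array, against 10.29 on the array of untreated KO mouse 3. Whether the bright probe sets are near saturation was not tested.

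Proteins of the zymogen granule and its surroundings followed the enzymes. Of 15 measured genes of that list, 10 passed as higher and none as lower, 11 had all 7 pancreas-positive arrays above all 5 others, and the median difference was 4.32. Gp2, the main membrane protein of the zymogen granule, had 10.95, 11.85 and 12.12 on the pancreas-positive arrays, against 2.80, 3.01, 4.07, 3.69 and 3.59 on the pancreas-negative arrays. Sycn, a granule protein, had 12.42, 12.81 and 12.88, against 3.49, 6.57, 6.47, 6.19 and 6.65. Mouse 1 of methotrexate-treated KO was the lowest of the pancreas-negative arrays for both. Cuzd1 differed by 7.26 ± 0.31, Serpini2 (pancpin, a serine protease inhibitor of the pancreas) by 5.65 ± 0.20, Muc1, an apical membrane mucin, by 4.32 ± 0.27 and Tff2, a trefoil peptide also known from stomach and Brunner glands, by 7.08 ± 0.29.

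Of the Reg genes, which encode secreted C-type lectins of pancreas and gut, Reg2 and Reg3d kept the 2 kinds of array apart, with differences of 7.20 ± 0.56 and 5.88 ± 0.46. Reg1 had 11.94, 12.22 and 12.39 on the pancreas-positive arrays, against 6.62, 9.64, 11.94, 11.46 and 11.21 on the pancreas-negative arrays, so that the pancreas-negative arrays already held a strong signal. Reg3a had 7.06, 7.85 and 11.28, against 4.26, 9.75, 9.24, 9.60 and 9.91, and its ranges overlapped. Spink1, the trypsin inhibitor, overlapped too, with 8.60 to 10.22 against 2.72 to 9.69. Pebp4 was dim on every array, at 2.99 to 3.49 on the pancreas-positive and 3.04 to 3.82 on the pancreas-negative arrays.

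Receptors, channels and enzymes typical of acinar cells were higher by smaller amounts. Of 22 measured genes 17 passed as higher and none as lower, 18 were higher in all 4 groups, and the median difference was 2.28. Pdia2, the disulphide isomerase of the pancreas, had 9.40, 10.79 and 11.40 on the pancreas-positive arrays, against 2.83, 4.79, 3.57, 3.30 and 3.78 on the pancreas-negative arrays. Cckar, the receptor through which cholecystokinin triggers enzyme release, had 7.24, 9.32 and 10.48, against 3.80, 2.87, 3.10, 2.69 and 3.05. Both ranges were separate. Erp27, an isomerase-related protein of the ER, differed by 5.66 ± 0.35, the water channel Aqp12 by 5.55 ± 0.34, and the amino acid transporters Slc38a3 and Slc38a5 by 4.32 ± 0.39 and 4.25 ± 0.40. Gatm, the enzyme that begins creatine synthesis, differed by 3.56 ± 0.20 and Gamt, which completes it, by 2.34 ± 0.35. The 5 that did not pass were Galnt2 and Rab27b, which many tissues use, at 0.14 and 0.34, Kirrel2 at 0.37, Aqp8 at 0.75 and Slc39a5 at 1.43.

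Genes of methionine, folate and serine metabolism, chosen after their values were seen, lay with this group. Mat1a, which makes S-adenosylmethionine and is best known from liver, had 5.71, 8.50 and 11.36 on the pancreas-positive arrays, against 3.61, 3.74, 3.63, 4.09 and 3.91 on the pancreas-negative arrays. All 7 lay above all 5, and the 2 arrays of methotrexate-treated KO were the highest, at 11.00 and 11.36. Cbs, which turns homocysteine into cystathionine, differed by 3.97 ± 0.26, and Gnmt, which consumes S-adenosylmethionine, by 3.53 ± 0.43. Aldh1l2, a mitochondrial folate enzyme, differed by 3.03, Aass, the first enzyme of lysine breakdown, by 1.94, Phgdh, the first of serine synthesis, by 1.50 and Asns, asparagine synthetase, by 1.45. The kallikrein genes Klk1b5 and Klk1b11 differed by 3.85 and 4.14, vitronectin (Vtn) by 3.32, the neuropeptide galanin (Gal) by 3.33 and the aspartic protease Ctse by 3.74.

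Of the transcription factors of acinar cells, 2 of the 8 measured passed as higher. Ptf1a, the helix-loop-helix subunit of PTF1, had 4.33, 5.47 and 6.58 on the pancreas-positive arrays, against 3.68, 3.44, 3.90, 3.59 and 3.72 on the pancreas-negative arrays. Bhlha15 (Mist1), which sets up the secretory apparatus, had 6.12, 7.61 and 9.17, against 5.63, 5.94, 4.61, 4.83 and 5.20. For both genes the ranges did not touch, although Ptf1a stayed in the lower part of the scale. Gata4, Gata6 and Nr5a2, which the gut epithelium also uses, differed by 0.11, -0.09 and 0.83 and did not pass. Xbp1, Foxa3 and Creb3l4 did not pass either, at 0.33, 0.27 and -0.23. The list's median difference was 0.30. Rbpjl, the acinar RBPJ-type subunit, was not analysed here.

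The general secretory pathway moved little beside the enzymes. Of 24 ER chaperone and translocation genes 6 passed as higher and none as lower, with a median difference of 0.27. Derl3, a factor of ER-associated degradation, differed most, by 2.80 ± 0.22, with 6.56 to 9.09 on the pancreas-positive arrays, against 4.48 to 5.40 on the pancreas-negative arrays. Ero1b, an oxidase that drives disulphide formation, differed by 2.09 ± 0.33 and Sel1l by 1.24 ± 0.22. Hspa5 (BiP), the main ER chaperone, differed by 0.15 ± 0.11.

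**Figure D2:**
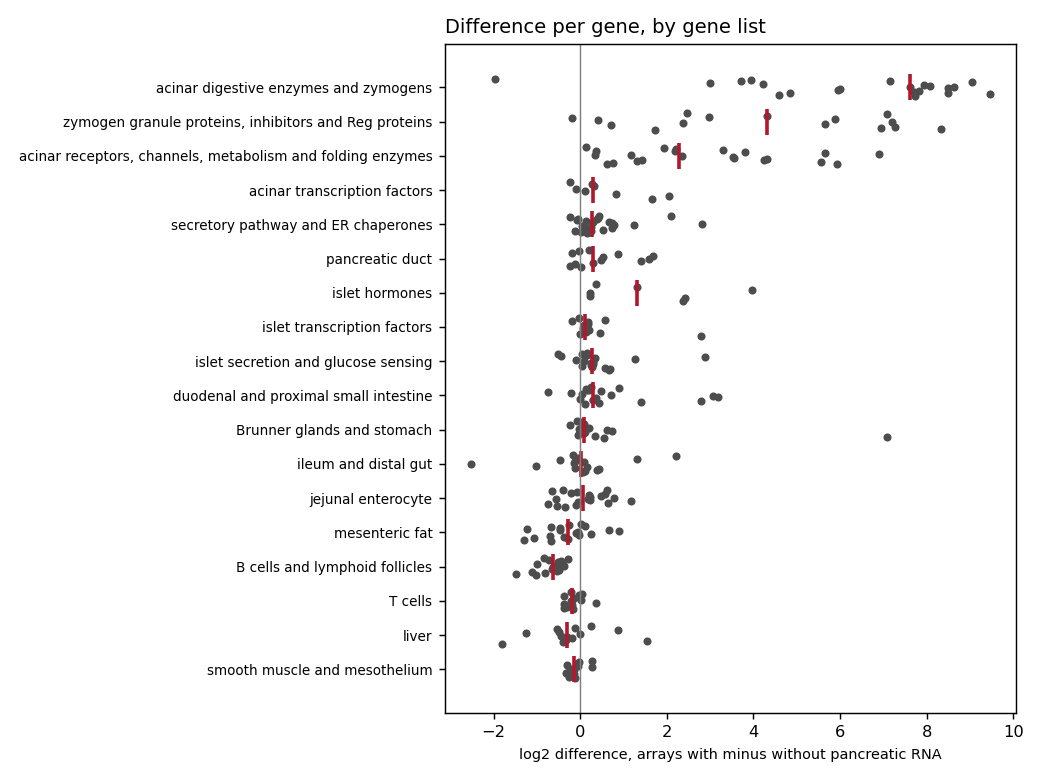
Log2 difference of each measured gene (x axis, pancreas-positive minus pancreas-negative arrays, group means in the fit), 1 point per gene, with 1 row per gene list and the list's median as a bar. The medians run from 7.61 for the acinar enzymes to -0.62 for B cell genes, and 1 enzyme gene, Dnase1, lies at -1.97.

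Duct genes were mixed. Of 13 measured genes 5 passed as higher and none as lower, with a median difference of 0.30. Onecut1, a transcription factor of duct and acinar development, had 3.65, 5.08 and 5.73 on the pancreas-positive arrays, against 3.48, 3.29, 3.13, 3.34 and 3.54 on the pancreas-negative arrays, and the ranges were separate. Pkhd1, the cilium protein of ducts, differed by 1.59 ± 0.22, carbonic anhydrase Car2 by 1.68 ± 0.38, Ambp by 0.88 ± 0.19 and Bicc1 by 0.49 ± 0.11. The other 8 did not pass. Among them were genes that gut epithelium also uses strongly: Krt19 differed by 0.02 ± 0.09, Sox9 by 0.30 ± 0.21 and Cftr, the chloride channel, by -0.11 ± 0.21. Dim genes were among them too: Muc20, at 2.87 to 3.73 on the pancreas-positive arrays, differed by -0.03 and Sctr by 0.21. Car2 passed although it had 6.62 to 7.86 on the pancreas-negative arrays.

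Islet hormone genes followed the split in part. Of the 7 measured genes 4 passed as higher, none as lower, and the list's median difference was 1.32. Ins2, an insulin gene, had 5.64, 6.20 and 7.56 on the pancreas-positive arrays, against 3.78, 4.49, 4.58, 3.90 and 4.17 on the pancreas-negative arrays. Iapp, encoding the amylin that beta cells release with insulin, had 4.54, 5.10 and 7.42, against 3.33, 3.29, 3.21, 3.40 and 3.50. Ppy, pancreatic polypeptide, had 6.97, 7.40 and 9.60, against 3.72, 3.54, 4.22, 4.08 and 3.53. All 7 arrays lay above all 5 for each of these 3 genes.

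The hormone signals also varied among the pancreas-positive arrays. Iapp was 7.27, 7.42 and 7.29 on mouse 3 of methotrexate-treated KO and on mice 2 and 3 of untreated KO, against 5.10, 5.01, 4.67 and 4.54 on mouse 2 of methotrexate-treated KO and on the 3 WT arrays. Ins2 had its 3 highest values on the same 3 KO arrays, which were also the 3 with the highest enzyme list means, at 11.09, 11.21 and 11.30. Pyy, a hormone of islets and of distal gut cells, overlapped between the 2 kinds of array at 5.09 to 7.41 against 4.38 to 5.94, and differed by 1.32 ± 0.24. Glucagon (Gcg), somatostatin (Sst) and ghrelin (Ghrl), which endocrine cells of the gut also make, differed by 0.22 ± 0.37, 0.24 ± 0.16 and 0.37 ± 0.19 and did not pass. Ins1 was not analysed here.

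**Figure D3:**
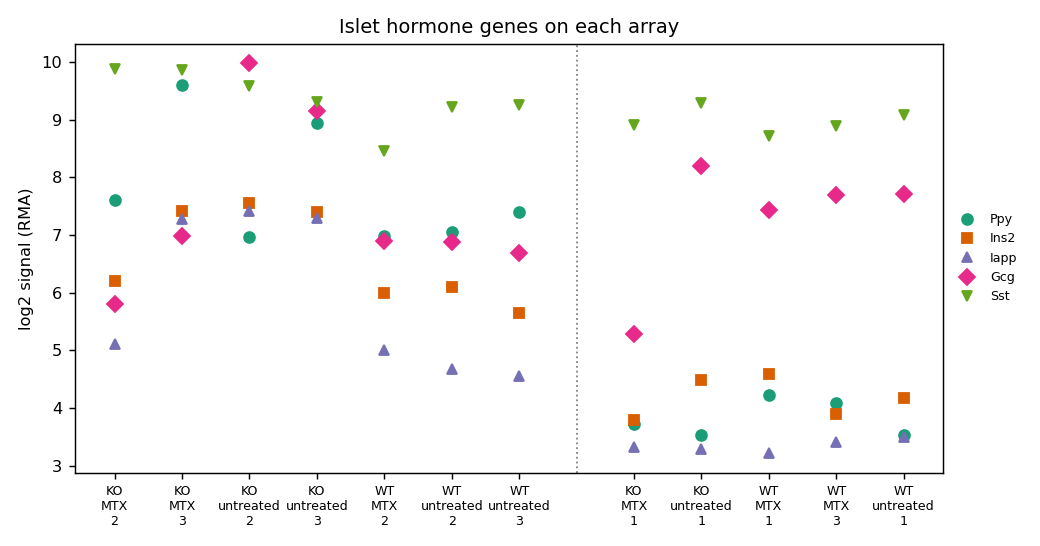
Log2 signal (y axis) of 5 islet hormone genes on each array (x axis, pancreas-positive left of the dotted line). Ppy, Ins2 and Iapp lie higher on all 7 pancreas-positive arrays than on the 5 others, while the Gcg and Sst points of the 2 sides overlap.

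Few other islet genes followed. Of 14 islet transcription factors 1, Pdx1, passed as higher and none as lower, with a median difference of 0.11, and the beta cell factor Mafa stayed at 2.99 to 3.52 on the pancreas-positive arrays, against 2.95 to 3.28 on the pancreas-negative arrays. Of 20 genes of hormone secretion and glucose sensing, 2 passed as higher and 1 as lower, with a median difference of 0.27. Glp1r, the receptor of the incretin GLP-1, had 5.64, 7.60 and 8.77 on the pancreas-positive arrays, against 3.67, 4.76, 4.74, 4.72 and 4.95 on the pancreas-negative arrays, with no overlap. Ptprn2, a granule phosphatase, differed by 1.28 ± 0.22, and Rgs4 by -0.51 ± 0.10. G6pc2, a beta cell gene of glucose sensing, differed by 0.68 ± 0.27 and did not pass.

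The split also went with genes that differ along the gut. Of 20 genes of duodenum and proximal small intestine, 4 passed as higher, namely Slc40a1, Cybrd1, Pdx1 and Onecut1, and 1, Lct, as lower, with a median difference of 0.29. Cybrd1, the ferric reductase of the duodenal brush border, had 9.31, 9.54 and 10.78 on the pancreas-positive arrays, against 7.58, 6.57, 7.11, 6.70 and 5.75 on the pancreas-negative arrays, with no overlap. Slc40a1, the iron exporter ferroportin, had 8.30, 11.03 and 11.30, against 7.38, 5.75, 9.71, 8.13 and 6.42. Pdx1, a regulator of pancreas and duodenum, had 5.45, 8.90 and 9.15, against 4.85, 3.77, 7.92, 5.45 and 5.23. The last 2 genes overlapped, since mouse 1 of methotrexate-treated WT was high among the pancreas-negative arrays and the 2 arrays of methotrexate-treated KO were low among the pancreas-positive ones.

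The same 3 arrays stood out for proximal genes chosen after their values were seen. Akp3, an alkaline phosphatase of the duodenal brush border, had 10.12, 12.63 and 12.86 on the pancreas-positive arrays, against 4.91, 7.14, 12.27, 10.30 and 9.41 on the pancreas-negative arrays. S100g, the calcium carrier calbindin-D9k, had 5.10, 11.18 and 11.49, against 3.32, 5.54, 9.42, 6.57 and 6.34. Trpv6, the apical calcium channel that works with it, had 3.72, 7.40 and 8.41, against 3.01, 2.74, 3.27, 2.99 and 2.99, with no overlap. Tmprss15, the enteropeptidase that activates trypsinogen, differed by 2.24 ± 0.71 and did not pass.

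Other proximal markers did not separate the arrays. Gata4 differed by 0.11 ± 0.14, Onecut2 by 0.44 ± 0.26, secretin (Sct) by 0.30 ± 0.14, cholecystokinin (Cck) by 0.29 ± 0.18 and Gip by 0.00 ± 0.14. Of 17 genes of Brunner glands and stomach 2, Tff2 and Pgc, passed as higher, and the median difference was 0.09. Muc6, the mucin of Brunner glands, was 8.53 on mouse 3 of untreated WT and 4.07 or less on all other arrays.

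Some transporter genes ran the other way, and these too were chosen after their values were seen. Slc5a12, a lactate transporter, had 2.55, 2.87 and 6.23 on the pancreas-positive arrays, against 3.13, 9.68, 7.86, 8.70 and 10.15 on the pancreas-negative arrays, a difference of -4.10 ± 0.93. It was lower on the pancreas-positive arrays in all 4 groups and passed. Enpp7, an intestinal sphingomyelinase, had 3.36, 4.12 and 5.68, against 3.12, 11.42, 6.75, 8.85 and 10.37, and Slc34a2, a phosphate transporter, had 2.96, 3.66 and 6.27, against 2.96, 10.90, 5.52, 7.64 and 9.71. Mouse 1 of methotrexate-treated KO was the lowest pancreas-negative array for all 3 genes, and mouse 1 of methotrexate-treated WT lay within the pancreas-positive range for Slc34a2. By the threshold Enpp7, Slc34a2 and the vitamin C transporter Slc23a1 did not pass. The serine protease Prss30 and the carbonic anhydrase Car4 passed as lower, at -2.03 ± 0.45 and -1.34 ± 0.11.

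**Figure D4:**
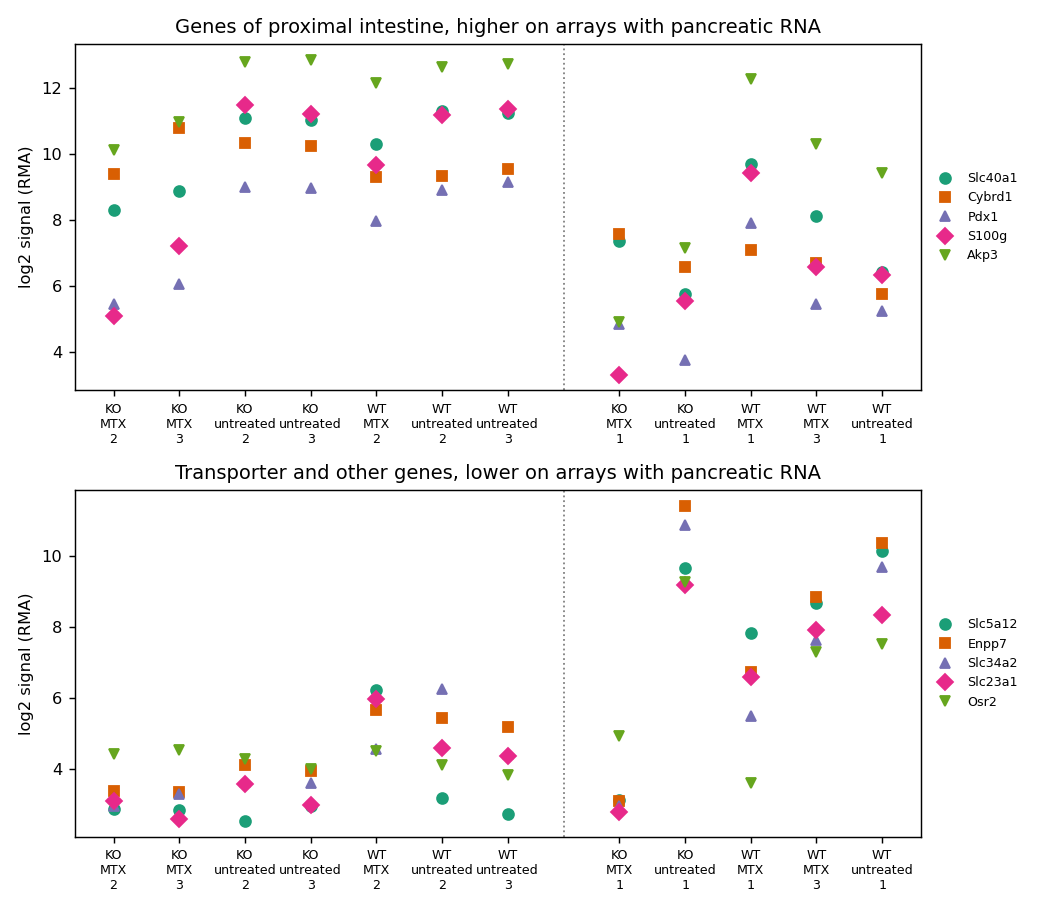
Log2 signal (y axes) of 5 genes of proximal intestine that were higher (top) and 5 genes that were lower (bottom) on the pancreas-positive arrays, per array (x axis, pancreas-positive left of the dotted line). In the top panel mouse 1 of methotrexate-treated WT lies within the pancreas-positive range for most genes, and in the bottom panel the pancreas-negative array of methotrexate-treated KO is low.

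Ileal markers were mixed, with differences from -2.52 to 2.22. Of 16 measured genes of ileum and distal gut 1, Pyy, passed as higher, and the median difference was 0.01. Fabp6, the ileal bile acid carrier, was at 2.46 to 2.67 on the pancreas-positive arrays and 2.42 to 2.61 on the pancreas-negative arrays, at the bottom of the scale. Osr2 had 3.85, 4.30 and 4.56 on the pancreas-positive arrays, against 4.94, 9.29, 3.61, 7.32 and 7.53 on the pancreas-negative arrays, and Slc37a2, a sugar-phosphate exchanger, had 5.52, 9.13 and 9.40, against 5.20, 4.60, 7.75, 6.14 and 6.23. Neither passed. Of 20 jejunal enterocyte genes none passed as higher and 1, the lactase gene Lct, as lower, with a median difference of 0.07.

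Markers of other tissues that could be dissected with the gut gave fewer calls than the acinar enzymes. The B cell genes all had negative differences, from -1.48 to -0.29. The median difference was -0.28 for 19 genes of mesenteric fat (1 passed as higher, 2 as lower), -0.31 for 14 liver genes (2 higher, 0 lower), and -0.14 for 14 genes of smooth muscle and mesothelium, -0.18 for 14 T cell genes and -0.62 for 18 B cell genes, with none passing in either direction in these last 3 lists. The summed fat signal was highest on mouse 1 of untreated WT, where the list mean was 6.96 against 4.79 to 5.79 on the other 11 arrays, with Adipoq, the adipocyte hormone, at 6.50 and Car3 at 10.85. Alb, the albumin gene of liver, was 8.16 on mouse 3 of methotrexate-treated WT and 7.18 on mouse 1 of untreated KO, both pancreas-negative, and 3.28 to 4.28 on the pancreas-positive arrays. By group, the median difference of the B cell genes was -0.995 in untreated WT, -1.02 in untreated KO and -1.43 in methotrexate-treated WT. In methotrexate-treated KO it was 0.67. The B cell list mean was highest, at 6.64, on mouse 1 of methotrexate-treated WT. The part of these tissues in the differences above was not tested.

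The genes with the lowest differences among those with no overlap were far closer to 0 than the pancreatic genes. The 12 lowest ran from -0.68 for Mmp25, a membrane metalloproteinase, to -0.22 for Palld, an actin-binding protein. Smagp, a small adhesion glycoprotein, had 8.34, 8.64 and 9.08 on the pancreas-positive arrays, against 9.13, 9.28, 9.28, 9.31 and 9.53 on the pancreas-negative arrays, so that 2 narrow ranges lay side by side. The other 9 were Sema6d, Parp11, Trp53rka, Kpna4, Pagr1a, Ttc9c, Ostf1, Antxrl and Cd2ap. Of the 12, Mmp25 and Smagp passed the threshold as lower and the rest did not.

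Whether pancreatic transcripts differed with treatment can be asked among the 7 pancreas-positive arrays, a contrast the split does not use. Methotrexate-treated KO mice (2 arrays) were set against untreated KO mice (2 arrays) with limma over all 18820 genes, with the spread taken from the 7 arrays (3 residual degrees of freedom) and Benjamini-Hochberg adjustment over all genes. In this contrast 3986 genes (21.2%) rose and 3519 (18.7%) fell, so a called gene is common. All 20 jejunal enterocyte genes fell, with a median of -2.54, which belongs beside every value below for a gene that gut cells also use. The acinar enzyme list means were 11.00 and 11.09 in methotrexate-treated KO and 11.21 and 11.30 in untreated KO.

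Most enzyme genes gave no call. Of the 21, 1 rose, 3 fell and 17 did not pass, with a median of -0.06 against -0.03 over all genes. Cel was 12.47 and 12.55 in methotrexate-treated KO, against 12.59 and 12.65 in untreated KO, a difference of -0.11 ± 0.11 (limma, adjusted p = 0.473). Cpa1 differed by -0.06 ± 0.11 (limma, adjusted p = 0.699). Cel and Cpa1 are among the 12 enzyme genes averaging 12 or more, whose range over the 7 arrays had a median of 0.55. For such bright genes a missing call does not show stable expression, since saturation was not tested. Of the called genes below, Amy1, Cela3a and Ctrc are among the 8 dimmer ones, with a median range of 1.74. Amy1 rose by 0.56 ± 0.13 (limma, adjusted p = 0.00786), a call that was lost without untreated KO mouse 2, at 0.50 (limma, adjusted p = 0.0569). Cela3a fell by 1.21 ± 0.17, Ctrc by 0.82 ± 0.25 and Dnase1 by 2.04 ± 0.18 (limma, adjusted p = 0.000584, 0.0286 and 4.41e-05). Dnase1 ran against the other enzymes over the split. On the pancreas-negative arrays it was 3.27 in methotrexate-treated KO, against 8.28 in untreated KO. The call of Ctrc was lost in 5 of the 7 fits without 1 array, and its value was smallest, at -0.42, without mouse 2 of methotrexate-treated KO. Of these 7 fits, the one without mouse 2 of methotrexate-treated WT cannot change this contrast. Those without mouse 2 and without mouse 3 of untreated WT give the same result. The same holds for the 7 fits of each gene below.

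Of the 15 Reg and other granule-associated genes, 5 rose, 1 fell and 9 did not pass, beside the 21.2% of all genes that rose. Reg2 was 12.52 and 12.50 in methotrexate-treated KO, against 9.99 and 9.93 in untreated KO, and rose by 2.56 ± 0.42 (limma, adjusted p = 0.0015). Reg3a, also a gut antimicrobial lectin, was 11.28 and 11.09, against 7.06 and 7.32, and rose by 4.00 ± 0.13 (limma, adjusted p = 5.20e-07). Itih4, an acute-phase protein, rose by 2.93 ± 0.28 (limma, adjusted p = 7.80e-05). Neither pair of arrays overlapped the other for these 3 genes. Pairs this small can separate without any effect, and the share of all genes that did so is not given here, so the separation adds no evidence. Reg3a was 4.26 on the pancreas-negative array of methotrexate-treated KO, against 9.75 on that of untreated KO, while Reg2 was 2.92 and 3.50 there.

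Reg3d rose by 1.03 ± 0.29 (limma, adjusted p = 0.022) and Muc1 by 0.60 ± 0.14 (limma, adjusted p = 0.0111). Both calls rested on single arrays. Reg3d gave 0.58 (limma, adjusted p = 0.12) without untreated KO mouse 2 and 0.93 (limma, adjusted p = 0.0819) without methotrexate-treated KO mouse 2, and Muc1 gave 0.49 and 0.46 (limma, adjusted p = 0.0803 and 0.0515) without untreated KO mouse 2 and without methotrexate-treated KO mouse 3. Serpini2 fell by 0.79 ± 0.13 (limma, adjusted p = 0.00178). Mat1a, chosen after its values were seen, rose by 2.56 ± 0.16 (limma, adjusted p = 6.92e-06).

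Acinar receptors, metabolic genes and transcription factors mostly fell where they were called. Of the 22 receptor, channel and metabolism genes 2 rose, 9 fell and 11 did not pass. Of the 8 transcription factors none rose, 6 fell and 2 did not pass. Over all genes 21.2% rose and 18.7% fell. The 6 were Gata4, Gata6 and Nr5a2, which the gut epithelium also uses, and Foxa3, Bhlha15 and Ptf1a. Gamt was 7.31 and 7.85 in methotrexate-treated KO, against 9.32 and 9.47 in untreated KO, and fell by 1.82 ± 0.18 (limma, adjusted p = 8.36e-05). Bhlha15 was 6.41 and 7.46, against 8.71 and 9.17, and fell by 2.01 ± 0.31 (limma, adjusted p = 0.00114). Ptf1a fell by 1.21 ± 0.27 (limma, adjusted p = 0.00849), but gave -0.99 (limma, adjusted p = 0.0714) without untreated KO mouse 3.

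Further members of these lists were called. Tmed11, a cargo receptor, fell by 1.97, Slc38a5 by 1.34 and Gatm by 0.99 (limma, adjusted p = 0.00395, 0.00187 and 0.0034). Gnmt rose by 0.74 ± 0.22 (limma, adjusted p = 0.0312), a call lost in 5 of the 7 fits without 1 array, with values of 0.37 to 0.86 in those fits. Gata6 and Aqp8, both also used by the gut, fell by 1.74 ± 0.12 and 4.08 ± 0.31 (limma, adjusted p = 1.10e-05 and 2.36e-05). Among 24 ER chaperone genes 1 rose and 11 fell, beside 21.2% and 18.7% of all genes. Derl3 fell by 1.30 ± 0.17 (limma, adjusted p = 0.000495).

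**Figure D5:**
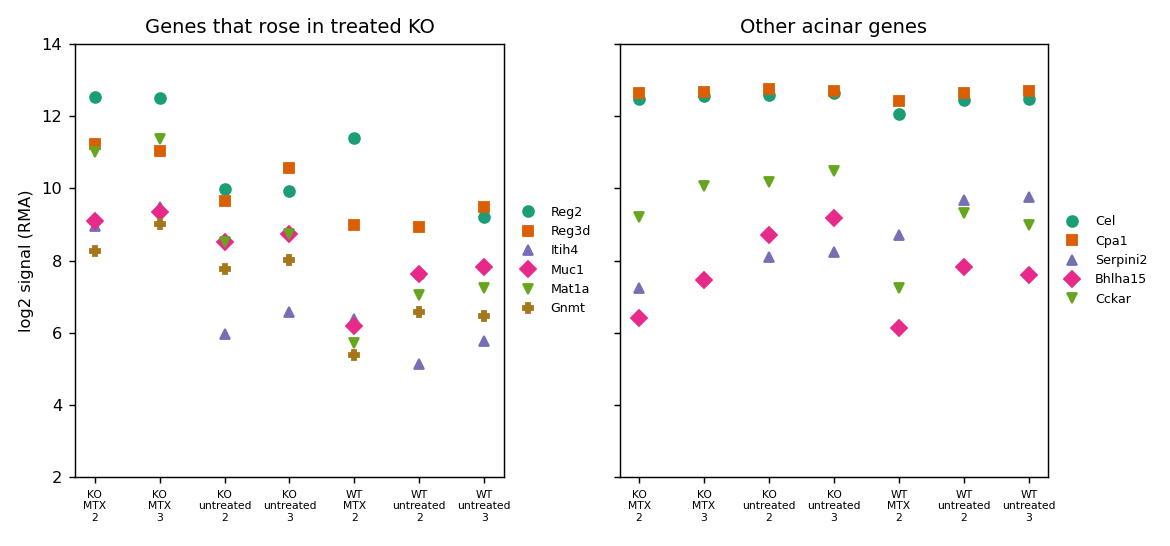
Log2 signal (y axis) on each of the 7 pancreas-positive arrays (x axis) of 6 genes that rose in methotrexate-treated KO mice (left) and of 5 other acinar genes (right). Cel and Cpa1 are flat at the top of the scale, while Reg2 and Mat1a are highest on the 2 arrays of methotrexate-treated KO.

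Among islet hormones 1 rose, 3 fell and 3 did not pass. Glucagon (Gcg) was 5.81 and 6.98 in methotrexate-treated KO, against 9.97 and 9.14 in untreated KO, and fell by 3.16 ± 0.38 (limma, adjusted p = 0.000268). On the pancreas-negative arrays Gcg, which gut endocrine cells also make, was 5.28 in methotrexate-treated KO, against 8.19 in untreated KO. Pyy fell by 1.24 ± 0.35 and Ghrl by 1.13 ± 0.13 (limma, adjusted p = 0.0216 and 0.00021), but Pyy gave -1.18 and -1.30 (limma, adjusted p = 0.107 and 0.0809) without untreated KO mouse 2 and without untreated KO mouse 3. The 3 genes whose arrays the split separated did not pass: Ins2 differed by -0.67 ± 0.34, Iapp by -1.16 ± 0.56 and Ppy by 0.66 ± 0.72 (limma, adjusted p = 0.164, 0.14 and 0.52). Without methotrexate-treated KO mouse 3, Ins2 gave -1.27 and Iapp -2.25 (limma, adjusted p = 0.00161 and 1.48e-05). Sst rose by 0.43 ± 0.13 (limma, adjusted p = 0.0291), a call lost in 5 of the 7 fits without 1 array, with values of 0.28 to 0.44 in those fits.

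Of 14 islet transcription factors 9 fell and none rose, and of 20 secretion and glucose sensing genes 4 rose and 10 fell. Over all genes 21.2% rose and 18.7% fell. The genes with the smallest p among the pancreatic lists were mostly ones that gut epithelium uses. Slc2a2, the glucose transporter of beta cells and enterocytes, fell by 5.91 ± 0.29, Pdx1 by 3.24 ± 0.20, Cftr by 1.65 ± 0.11 and the bicarbonate transporter Slc4a4 by 2.73 ± 0.23 (limma, adjusted p = 2.45e-06, 6.76e-06, 1.22e-05 and 3.40e-05). Krt7, a keratin of ducts, rose by 2.28 ± 0.15, Bicc1 by 2.02 ± 0.17 and Ptprn, a secretory granule protein, by 1.47 ± 0.12 (limma, adjusted p = 8.93e-06, 3.21e-05 and 3.84e-05). On the pancreas-negative arrays, where Cela3b was near the bottom of the scale, Slc2a2 was 2.93 in methotrexate-treated KO, against 10.42 in untreated KO, and Krt7 was 10.31, against 8.55. Of the 13 duct genes 3 rose, 5 fell and 5 did not pass.

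Between untreated KO and untreated WT mice (2 pancreas-positive arrays each), 64 genes (0.34%) rose and 14 (0.0744%) fell in the same fit of 7 arrays. These calls need all 4 arrays: without any 1 of them 0 to 2 genes rose and 0 to 5 fell, and none of the 13 genes followed here passed, while their differences kept their sign, Gcg at 2.36 to 3.19 and Serpini2 at -1.61 to -1.48. Serpini2 was 8.11 and 8.23 in untreated KO, against 9.67 and 9.75 in untreated WT, and fell by 1.54 ± 0.13 (limma, adjusted p = 0.0149). Serpini2 was the 1 gene called lower in the pancreatic lists. It lies on the chromosome that carries Tlr2, but the positions of the other called genes are not given here. The part of position in any of these calls was not tested. Gcg was 9.97 and 9.14, against 6.87 and 6.69, and rose by 2.78 ± 0.38 (limma, adjusted p = 0.0353). Slc30a8, the zinc transporter of insulin granules, rose by 1.39 ± 0.14, Amy1 by 1.09 ± 0.13, Slc38a3 by 1.34 ± 0.17 and Derl3 by 1.43 ± 0.17 (limma, adjusted p = 0.0169, 0.0252, 0.0302 and 0.0292).

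Between these groups 2 of 21 enzyme genes, 2 of 22 acinar receptor and metabolism genes and 1 of 7 islet hormones rose. The enzyme list mean moved with the contrast, at 11.21 and 11.30 in untreated KO and 10.89 and 10.98 in untreated WT, and 20 of the 21 enzyme genes had a positive difference, with a median of 0.20. The part of the acinar content in the calls was not tested. Of the genes chosen after their values were seen, Mat1a rose by 1.46 ± 0.16, Aass by 1.40 ± 0.12 and Aldh1l2 by 1.39 ± 0.14 (limma, adjusted p = 0.0204, 0.0149 and 0.0173).

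The uneven spread of pancreas-positive arrays over the groups bears on the study's own comparisons, which were fitted over all 12 arrays with and without the split term. In methotrexate-treated WT against untreated WT, where 1 of 3 arrays stands against 2 of 3, the median enzyme difference was -0.11 with the split and -2.38 without it. In methotrexate-treated KO against methotrexate-treated WT it was 0.17 with the split and 2.40 without it. In methotrexate-treated KO against untreated KO and in untreated KO against untreated WT, where both groups had 2 of 3, it was -0.45 and 0.43 in either fit. None of the 21 enzyme genes was called in WT mice after methotrexate with or without the split term, and 2 with it and 1 without it were called between the treated genotypes. Over all genes the split term gave 16 higher (0.085%) and 18 lower (0.0956%) for methotrexate in WT, against 8 (0.0425%) and 6 (0.0319%) without it. For methotrexate in KO it gave 3752 higher (19.9%) and 3206 lower (17.0%), against 3537 (18.8%) and 3012 (16.0%) without it. For untreated KO against WT it gave 2 higher (0.0106%) and 1 lower (0.00531%), against 1 and 1 (0.00531% each). For treated KO against treated WT it gave 3803 higher (20.2%) and 3169 lower (16.8%), against 3793 (20.2%) and 3155 (16.8%). In the first of these contrasts the 34 calls with the split ranged from 0 to 542 when 1 array was left out, the highest count being without mouse 1 of methotrexate-treated KO.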

How the data were processed

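RNA of the proximal jejunum of 12 mice was hybridised to 1 Affymetrix array each. The authors deposited log2 signals per probe set made with RMA (background correction, normalisation between arrays and a summary of the probes), per the submitters' processing notes. The RMA version is not given there. The annotation behind the array design is not given in the sources used here. RMA scales all arrays to 1 distribution, so a strong foreign signal can shift other genes slightly. No further scaling was applied to the deposited log2 values.

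Of 35556 probe sets, 21218 had 1 gene symbol in the platform annotation, 1881 had several and 12457 no name here. The 18820 genes (1386 with more than 1 probe set) were each represented by the probe set of highest mean signal. Arrays give no read depth, and their number limits the precision. Nothing says whether mice of a group were littermates, so p-values measure the spread between these mice.

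The split was added to a limma 3.58.1 fit (R 4.3.3, lmFit and eBayes) with a group mean for each of the 4 groups. Residual degrees of freedom were 7 with the split, 8 without it and 3 in the fit of the 7 arrays. P-values were adjusted by Benjamini and Hochberg's method across all genes and called under 0.05. Values after ± are limma's standard errors. Members, the 18 gene lists (330 symbols, 296 measured, repeats included) and the tests were chosen with earlier results of these data known. Named were list members, the 20 highest and 12 lowest differences without overlap between the arrays, 24 set genes (21 measured), and the 10 pancreatic list members with the smallest p in the contrast of the 7 arrays; 25 genes were chosen after their values were seen. On simulated tables of the 18820 genes the steps were tested before use. Promoters are RefSeq's, build GRCm38.p6.

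Replicate numbers were not used as pairs in the main fits. Deviations from group means of same-numbered arrays correlated at -0.49 to 0.67 (median 0.31), and at -0.58 to 0.37 (median -0.15) once the split was in the fit. All mice numbered 1 were pancreas-negative and all numbered 2 pancreas-positive. These values therefore cannot tell whether same-numbered mice share anything beyond the split. Alternatives were quantile normalisation, centring arrays, a filter below the 25th percentile, other uses of probe sets, a minimum difference of 1, fewer groups, the replicate block, no group means, the acinar mean as a continuous term or subtracted, a trended variance, and leaving out each array.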

Additional observations from a re-analysis of the deposited data

Results flagged for a closer look

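Among 38 means, of the 18 lists and of all genes, each over the 7 pancreas-positive or the 5 pancreas-negative arrays, 6 had 1 array farther from its nearest neighbour than Dixon's limit allows. That limit is set at 1 in 20 for arrays of 1 kind. These sets mix genotypes and treatments, and some lists share genes, so 1 in 20 is no yardstick here and the 6 are descriptions. Mouse 2 of methotrexate-treated WT had an acinar enzyme mean of 10.23 on the log2 scale, with the nearest other pancreas-positive array at 10.89. The other 5 were all mouse 1 of methotrexate-treated KO among the pancreas-negative arrays, the 1 array of that group there. Its means were 4.12 for zymogen granule genes (nearest array 5.52), 4.60 for islet secretion genes (5.21), 6.02 for duodenal and proximal genes (8.08), 4.39 for ileal genes (5.92) and 6.57 for jejunal enterocyte genes (11.24).

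In the fit of the 7 pancreas-positive arrays the methotrexate effect in KO minus that in WT was computed for 39 genes. They include the 10 pancreatic list members with the smallest p in treated against untreated KO on these same arrays. Others, such as Mat1a, were chosen after their values were seen. Large differences of effects were therefore likely among them, and those that stood out from their spread are given as descriptions. The WT effect rests on 1 treated array, assumed to vary like the others, so genotype and that single mouse cannot be told apart in these values. The difference of effects was positive for Mat1a at 4.00 ± 0.25, Reg3a at 3.01 ± 0.21, Bicc1 at 2.32, Muc1 at 2.13, Itih4 at 2.01, Gnmt at 1.86, Nupr1 at 1.68, Krt7 at 1.44, Ptprn at 1.26, Sst at 1.22, Cbs at 1.21 and Amy1 at 1.16. It was negative for Slc2a2 at -5.44 ± 0.46, Gcg at -3.28 ± 0.60, Aqp8 at -2.36, Slc4a4 at -2.27, Pdx1 at -2.18, Cftr at -1.99, Gata6 at -1.38, Dnase1 at -0.93 and Ghrl at -0.74. The single treated WT array also had the lowest enzyme signal of the 7, and the part of that in these differences was not tested.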

How the results depend on the processing

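The differences and calls below rest on 1 to 3 arrays per group. Direction was checked for the 323 listed and named genes of the split. Within the 7 arrays it was checked for 39 genes in treated against untreated KO and 13 in untreated KO against WT. No alternative turned the direction of a called value among these. It was not checked for other genes, nor for the split with all probe sets or the continuous acinar term. The 401 genes higher and 98 lower on the pancreas-positive arrays became 262 and 176 with arrays centred on their median, which moved the median of all genes from -0.01 to -0.09, and 331 and 159 after quantile normalisation. A minimum difference of 1 gave 172 and 11, untreated arrays alone 726 and 307, no treated KO arrays 495 and 267, no group means 95 and 0, and all probe sets 294 and 62. Leaving out 1 array gave 164 to 570 higher and 16 to 309 lower; the lowest counts were without mouse 1 of untreated KO, and the most genes were lower without mouse 1 of methotrexate-treated KO. Of the 20 enzyme genes that passed as higher and Dnase1, 20 to 21 passed in these fits, while 2 to 10 ER chaperone genes, 1 to 6 duct genes, 2 to 4 islet hormones and 1 to 5 proximal genes did.

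With the replicate number as a block the split gave 25 genes higher and 1 lower. Mouse 1 was pancreas-negative and mouse 2 pancreas-positive in every group. Mouse 3 was pancreas-negative only in methotrexate-treated WT, so the number and the split largely coincide. With the block in the fit the split term rests on that 1 array. Of the listed genes 13 enzymes, 4 granule genes, 3 acinar receptor and metabolism genes, 1 islet hormone and 1 Brunner gland and stomach gene still passed. None of the duct (5 without the block), ER chaperone (6), proximal intestine (5) or acinar transcription factor (2) genes did, nor any gene of the other lists. The block gave 0 calls for methotrexate in WT, where 34 were called without it, and changed no other count of calls by over 1.5 times.

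For methotrexate in WT the 34 calls became 14 without the split term, 836 on the pancreas-positive arrays alone, where the treated WT group is 1 array, 53 with centred arrays, and 0 to 542 without 1 array: 0 without mouse 1 or 2 of untreated WT, mouse 2 of untreated KO or mouse 2 of treated WT. For untreated KO against WT the 3 calls became 78 on the pancreas-positive arrays alone and 1 to 24 without 1 array. The ranges were 5777 to 7132 for methotrexate in KO and 6153 to 7023 for treated KO against WT. Centring turned 3752 higher and 3206 lower into 2748 and 4752 in the first of these, and 3803 and 3169 into 2754 and 4751 in the second. In the contrast of the 7 arrays centring gave 2984 genes higher and 5791 lower, with the median of all genes at -0.21 in place of -0.03, and subtracting the enzyme mean gave 5608 and 2266. For untreated KO against WT within the 7 arrays, leaving out 1 array, chosen after seeing the data, gave 0 to 312 calls in place of 78, and the differences of the 13 genes followed kept their direction. In treated against untreated KO it gave 3088 to 3986 and 2704 to 3519; where it left 1 array in a group, that array was assumed to vary like the others. Centring ended the calls of Muc1, Sst and Gnmt in that contrast, at 0.42, 0.24 and 0.55, and fitting only its 2 groups ended those of Ctrc, Sst and Gnmt (limma, adjusted p = 0.0502, 0.053 and 0.0533).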

Other observations

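Ngp and S100a8, granule proteins of neutrophils chosen after their values were seen, were 7.97 and 6.88 on mouse 1 of methotrexate-treated KO, where the T cell list mean, at 4.02, was the lowest of the 12 arrays. On the pancreas-positive arrays they lay at 2.51 to 2.84 and 2.69 to 3.20, including both other mice of that group. On the other 4 pancreas-negative arrays they did not exceed 2.96 and 3.06.

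Some genes of wide use were also higher on the pancreas-positive arrays, again chosen after their values were seen. Meis2, a homeobox factor, had 8.42, 8.93 and 9.45 as its lowest, median and highest log2 signal on the pancreas-positive arrays, against 8.26, 7.04, 7.41, 6.36 and 6.46 on the pancreas-negative arrays. Prdx4, the peroxiredoxin of the ER, had 6.74, 7.01 and 7.84, against 6.06, 5.47, 5.63, 5.80 and 5.35. Neither gene overlapped between the 2 kinds of array.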
